A study of Mus musculus with 2 samples.

Results

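Liver mRNA levels of 40 genes of the cell division cycle were compared between mice that had been fasted and mice upon feeding. The genes were chosen by name for their roles in the cycle, with earlier results of these data known. They were found on the arrays through the transcript identifiers of the probes. All 40 were among the 20652 gene names matched on the array, with 53 probes, and 39 of them were measured, that is, had a probe well above background on 1 array or both, out of 16346 measured genes in all. They fall into 14 regulators of G1, the phase in which a cell commits to division, 13 genes of DNA replication and 13 genes of mitosis.

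The study explored the role of thyroid hormone in glucose metabolism, and the arrays measured the hepatic response to feeding, which was set beside the response to the hormone. There were 2 groups, and in each the livers of 3 mice treated alike were pooled into 1 sample and hybridised to 1 array, so no replicate bears on any difference below and no test could be run. The pool hides the spread between mice, and the spread given here is that between spots of 1 probe on an array. All mice were male. The methods of the study give C57BL/6 J mice aged about 8 to 12 weeks, kept on a dark and light cycle, and name no transgene or drug for the fasting and feeding mice. The fasting group had gone without food overnight, for 16 h by one label and for 14 to 16 h by another. The feeding group is labelled both as fed ad libitum and as given nutrition after a fast, and how long before collection it ate is not given in the sources used here. The tissue is whole liver, and its label was checked against 8 hepatocyte markers, among them albumin, transthyretin and Cps1 of the urea cycle. All 8 were among the bright genes, as defined below, with normalized signals of at least 25610 upon fasting and 25500 upon feeding.

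A cell leaves quiescence when D-type cyclins with Cdk4 or Cdk6, and then cyclin E with Cdk2, phosphorylate the retinoblastoma protein and release E2F transcription factors. E2F proteins switch on the genes that license and copy DNA, and later MuvB with FoxM1 switches on the genes of mitosis. In quiescent cells MuvB is part of the DREAM complex, which represses genes of the cycle. Most hepatocytes of an adult liver are quiescent, and the liver also holds macrophages, endothelial cells, stellate cells and blood cells that may be dividing. In RNA from a whole tissue, fewer cells of a type and less RNA per cell cannot be told apart.

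A value is the normalized signal of a probe, in arbitrary intensity units after background subtraction and quantile normalization between the arrays, and a change is log2 of the signal upon feeding minus log2 of that upon fasting. Where a gene had several probes, the one with the highest mean signal stands for it. Genes were called at 2-fold, the threshold of the study. Genes were also split by mean signal into 3 groups of equal size, bright, middle and dim. Single spots of 1 probe gave differences between the arrays with an SD of 0.09 on the log2 scale in the bright group, 0.14 in the middle group and 0.29 in the dim group, over 120, 110 and 55 probes that were printed more than once. These SDs cover the measurement on the array and not the mice.

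Upon feeding, 2 of the 39 measured genes rose over 2-fold, the cyclin gene Ccne1 and the ribonucleotide reductase gene Rrm2, and 0 fell over 2-fold. Over all measured genes 7.91% passed 2-fold, 3.29% as higher and 4.62% as lower upon feeding, so that the share of the cell cycle genes past 2-fold was near that of all genes. Their changes ran from -0.86 to 1.65, with 25 lower, 13 higher and a median of -0.27, where 45.2% of all genes were lower and the median of all genes was 0. A gene measured on the feeding array alone cannot count as lower. Of genes well above background on both arrays, 25 of 38 cell cycle genes were lower, against 50.1% of all. At 1.5-fold, 2 were higher and 10 lower, against 10.5% and 10.6% of all genes. The 10 were 7 genes of mitosis and 3 regulators of G1, and 0 were genes of replication. The median change was -0.25 in the regulators of G1, 0.11 in the genes of replication and -0.61 in the genes of mitosis.

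**Figure D1:**
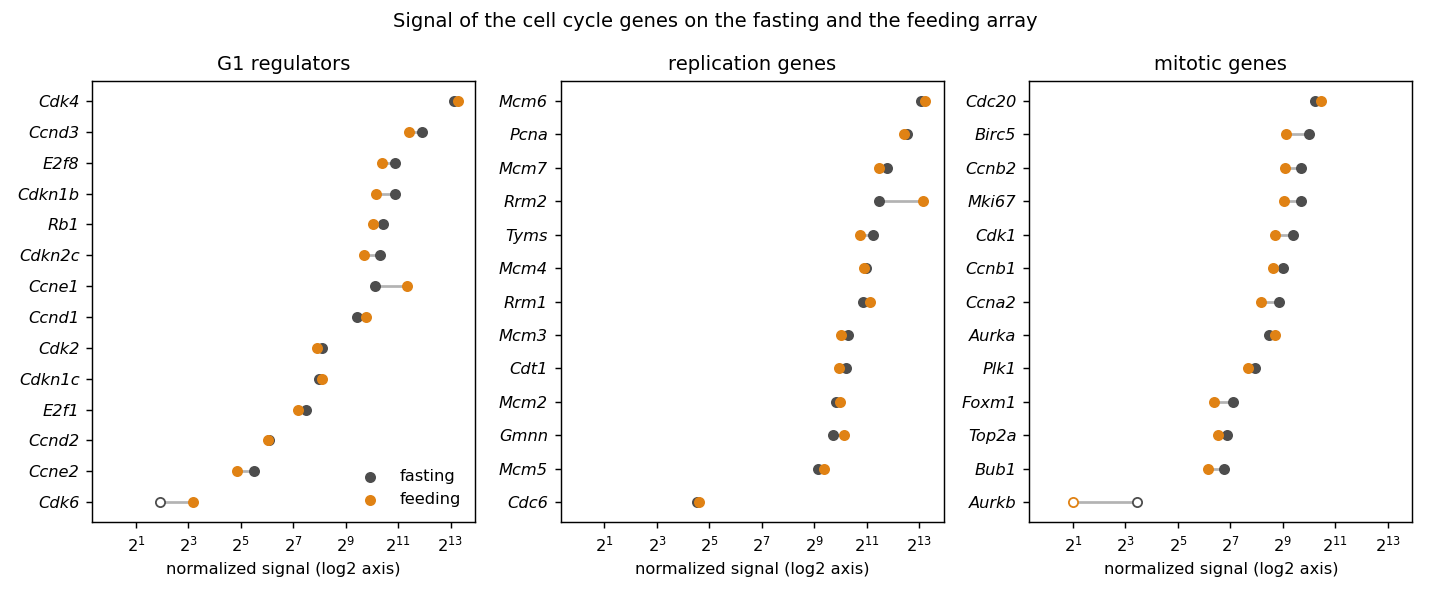
Normalized signal of each gene on the fasting array (dark) and the feeding array (orange), on a log2 axis, with 1 row per gene in 3 panels by role. Open circles mark a probe that was not well above background on that array, which holds for Cdk6 upon fasting and Aurkb on both arrays. Among genes well above background on both arrays, Ccne1 and Rrm2 have the longest distances to the right, and most genes of mitosis lie slightly to the left upon feeding.

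Of the genes of replication, Rrm2 had the largest change. Rrm2 encodes the small subunit of ribonucleotide reductase, which makes deoxyribonucleotides, the building blocks of DNA, and its protein is destroyed outside the replicating phase. Its normalized signal was 2858 upon fasting and 8988 upon feeding, 3.14-fold higher and a log2 change of 1.65. Of all measured genes, 0.838% changed further upward. The change lay between 1.52 and 1.86 under every other processing that was tried. Rrm1, the large subunit of the same enzyme, had signals of 1837 and 2227 and a log2 change of 0.28, so the subunits differed in the size of the change. Tyms, thymidylate synthase, which makes the thymine nucleotide, had signals of 2425 and 1722 and a log2 change of -0.49, the lowest of the replication genes.

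The genes that load and open the replicative helicase stayed within 1.5-fold. The helicase itself is a ring of the products of Mcm2 to Mcm7. From fasting to feeding, Mcm2 went from 916 to 1003, a log2 change of 0.13, and Mcm5 from 564 to 668, a log2 change of 0.24. Mcm6 went from 8611 to 9485, a log2 change of 0.14. These 3 were higher upon feeding. Mcm3 went from 1249 to 1039 (log2 change -0.27) and Mcm7 from 3501 to 2818 (log2 change -0.31). Mcm4 went from 2030 to 1905, a log2 change of -0.09. The 6 subunits were thus split evenly, and the sign of Mcm4 turned to 0.10 when the arrays were scaled by their medians. Pcna, the sliding clamp of the polymerases, had signals of 5954 and 5433 and a log2 change of -0.13, which turned to 0.08 under the same scaling. That scaling moved the median of all genes to 0.09.

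The licensing factors also showed no common direction. Cdt1, which brings the helicase to origins, had signals of 1191 upon fasting and 994 upon feeding, a log2 change of -0.26. Gmnn encodes geminin, the inhibitor of Cdt1, and had signals of 848 and 1130 and a log2 change of 0.41. The loader Cdc6 was dim, with signals of 22.9 and 24.6 and a log2 change of 0.11, inside the spread of single spots at that brightness. A further Cdc6 probe did not stand well above background on any array. Altogether 7 of the 13 replication genes were higher and 6 lower, or 9 higher and 4 lower when the arrays were scaled by their medians. Of all genes, 45.2% were lower as reported and 35.2% with that scaling. Of genes well above background on both arrays, 50.1% were lower as reported.

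Among the regulators of G1, Ccne1 stood alone past 2-fold. Ccne1 encodes cyclin E1, the partner of Cdk2 at the entry into replication. Its brighter probe had signals of 1118 upon fasting and 2598 upon feeding, a log2 change of 1.22, and its dimmer probe had 60.8 and 126, a log2 change of 1.05. Both probes thus rose over 2-fold, by 2.32-fold and 2.07-fold. Of all measured genes 1.95% changed further upward, and the change of Ccne1 lay between 1.06 and 1.39 under the other processings. The related Ccne2, cyclin E2, was dim and pointed the other way, with signals of 44.8 and 28.6 and a log2 change of -0.65. Cdk2, their kinase partner, had signals of 277 and 240 and a log2 change of -0.21.

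The windows around the transcription starts of the 2 genes past 2-fold are shown, since they are the members that the call singles out. Sequences are from RefSeq on GRCm38.p6, run from 250 bases before to 50 bases after the start on the strand of the gene, and had a match for 30 of the 40 members. Capitals mark letters of the motifs searched on both strands, which were 4 E2F octamers (TTTCCCGC, TTTCGCGC, TTTGCCGC, TTTGGCGC), TTTGAA of the cell cycle homology region (CHR), to which DREAM and MuvB bind, and CCAAT of the NF-Y box. Rrm2 lies at chr12:24708004-24708303 on the + strand and Ccne1 at chr7:38107441-38107740 on the - strand.
Rrm2: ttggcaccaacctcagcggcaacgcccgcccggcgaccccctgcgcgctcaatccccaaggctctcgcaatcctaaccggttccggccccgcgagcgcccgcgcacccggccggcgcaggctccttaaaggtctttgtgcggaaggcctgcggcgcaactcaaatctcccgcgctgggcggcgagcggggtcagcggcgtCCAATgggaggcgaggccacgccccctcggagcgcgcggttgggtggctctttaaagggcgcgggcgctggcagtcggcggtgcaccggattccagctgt
Ccne1: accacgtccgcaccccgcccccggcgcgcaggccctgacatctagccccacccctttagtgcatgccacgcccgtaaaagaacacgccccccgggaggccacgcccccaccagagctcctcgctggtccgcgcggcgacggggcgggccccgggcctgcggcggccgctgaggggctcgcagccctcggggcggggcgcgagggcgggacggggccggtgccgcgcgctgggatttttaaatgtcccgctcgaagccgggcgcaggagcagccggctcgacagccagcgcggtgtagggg
The Rrm2 window held 1 NF-Y box, 50 bases before the start, and the Ccne1 window held 0 matches of these letters, which says nothing about other forms of the sites or about binding.

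The D-type cyclins take up growth signals and activate Cdk4 and Cdk6. Ccnd1 had signals of 695 upon fasting and 884 upon feeding, a log2 change of 0.35. Ccnd2 had 66.9 and 65.6, a log2 change of -0.03, which is inside the spread of single spots and turned to 0.03 with normexp and 0.04 with no background subtraction. For Ccnd3 the brighter probe had 3820 and 2735, a log2 change of -0.48, and the other probe -0.64. The 3 cyclins therefore did not share a direction. Cdk4 had 3 probes, with signals of 8963 and 9972, 5018 and 7080, and 1253 and 1575, and log2 changes of 0.15, 0.50 and 0.33. All 3 Cdk4 probes were higher upon feeding, none of them past 1.5-fold. Cdk6 was well above background on the feeding array alone, with signals of 3.79 and 9.10, both under the lowest signal well above background upon fasting of 14.4, so no fold is given.

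Of 3 inhibitors of these kinases, 2 were lower upon feeding. Cdkn1b, which encodes p27, an inhibitor of the cyclin E and cyclin A kinases, had signals of 1882 upon fasting and 1128 upon feeding, a log2 change of -0.74 and the lowest of the regulators of G1. Cdkn2c encodes p18, which binds Cdk4 and Cdk6, and had signals of 1285 and 827 and a log2 change of -0.64. Cdkn1c, the p57 inhibitor, had signals of 256 and 276 and a log2 change of 0.11. Thus Cdkn1b and Cdkn2c were lower by over 1.5-fold, together with Ccne2, while Cdkn1c differed by less than the spread of single spots. With the arrays scaled by their medians Cdkn1b (-0.56) and Cdkn2c (-0.48) were under 1.5-fold, as was Ccne2 with normexp (-0.12) and with no background subtraction (-0.29).

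Rb1, E2f1 and E2f8 lay below their fasting levels by less than 1.5-fold. Rb1, the retinoblastoma gene, was printed as 10 spots on each array. Before normalization its spots read 1353 to 1492 upon fasting, with a median of 1410, and 993 to 1110 upon feeding, with a median of 1026. The spots of the 2 arrays did not overlap, which was not counted for the other probes printed more than once and so marks nothing particular to Rb1. The normalized log2 change was -0.38. Before normalization the feeding array was also dimmer as a whole. The median processed signal of its spots other than controls was 52.8, against 61.5 on the fasting array. Averages over 10 spots had an SD of their difference of 0.021 on the log2 scale, which is the precision of the spots and not of the mice. E2f1, an activator of replication genes, had signals of 180 and 147 and a log2 change of -0.30, which was -0.10 with normexp. E2f8, a repressor of E2F targets that is known for its part in hepatocyte polyploidy, had signals of 1890 and 1339 and a log2 change of -0.50.

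**Figure D2:**
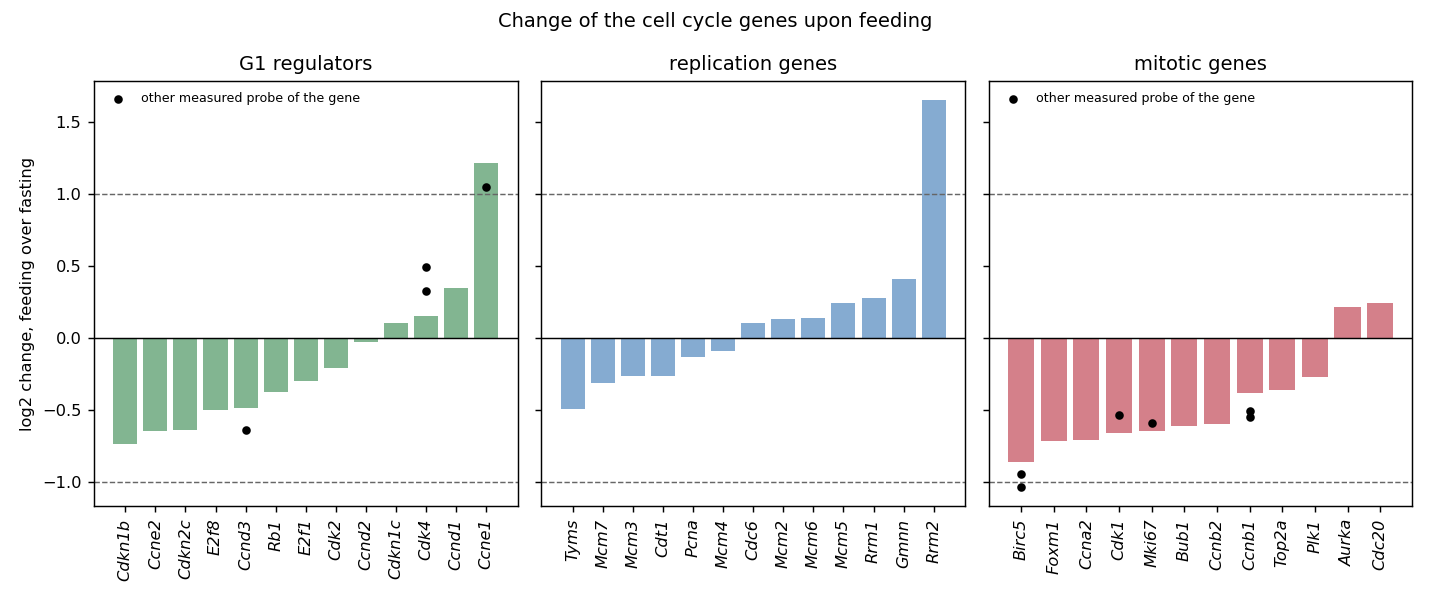
Log2 change upon feeding of the 39 measured genes except Cdk6, 1 bar per gene, in panels for regulators of G1, replication and mitosis, with black points for further measured probes of the same gene and dashed lines at 2-fold in each direction. The bars of Ccne1 and Rrm2 cross the upper line, 1 further probe of Birc5 crosses the lower line, and 10 of the 12 bars of mitotic genes point down.

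Genes of mitosis were lower upon feeding in 10 of 12 measured cases, with a median of -0.61 and 0 past 2-fold. At 1.5-fold 7 of the 12 were lower and 0 higher. The 2 exceptions were Aurka and Cdc20. None of the 12 was bright, 9 were in the middle group and 3 in the dim group, where 10.9% and 12.2% of all genes were lower by over 1.5-fold.

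The cyclins and the kinase of mitotic entry were lower together. Cdk1, the kinase that drives entry into mitosis, had signals of 667 upon fasting and 423 upon feeding, a log2 change of -0.66, and its second measured probe gave -0.54. Ccna2, cyclin A2, had 467 and 287, a log2 change of -0.70. Ccnb2, cyclin B2, had 832 and 549, a log2 change of -0.60. For Ccnb1, cyclin B1, the brightest of 3 probes had 516 and 396, a log2 change of -0.38, and the others gave -0.55 and -0.51. All 7 measured probes of these 4 genes were lower upon feeding. Foxm1, the transcription factor of the mitotic programme, was dim, with 137 and 83.5, a log2 change of -0.71, which was -0.29 with normexp and -0.43 with no background subtraction. A further Cdk1 probe and a further Foxm1 probe did not stand well above background on any array.

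Birc5 had the lowest change of all 39 genes. It encodes survivin, a subunit of the chromosomal passenger complex, and its 3 probes had signals of 1015 and 560, 126 and 65.3, and 87.3 and 42.7, with log2 changes of -0.86, -0.94 and -1.03. The last of these probes passed 2-fold and the brightest, which stands for the gene, did not. Aurkb, the kinase of the same complex, did not stand well above background on any array and is given no change. Mki67, the gene of the proliferation antigen Ki-67, had signals of 823 and 527 by one probe and 724 and 480 by the other, with log2 changes of -0.64 and -0.59. The 2 probes of Mki67 and the 3 of Birc5 each kept 1 direction.

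The remaining 5 genes of mitosis held both of the exceptions. Bub1, a kinase of the spindle checkpoint, was printed as 10 spots, which before normalization read 111 to 124 upon fasting and 60.2 to 72.1 upon feeding, with medians of 116 and 65.3. Its spots did not overlap between the arrays before normalization, when the feeding array had the lower median signal. As for Rb1, overlap was not counted for other probes. The normalized log2 change was -0.61, and the averages over spots had an SD of their difference of 0.032. That precision does not cover the treatment of background, since the change was -0.24 with normexp and -0.35 with no background subtraction. Top2a, the topoisomerase that untangles sister chromatids, had signals of 118 and 92.3 and a log2 change of -0.36, which was -0.17 with normexp. Plk1, the polo-like kinase, had 246 and 205, a log2 change of -0.27, which was -0.15 with normexp. In contrast, the centrosome kinase gene Aurka had 359 and 417, a log2 change of 0.22, and Cdc20, the activator of the complex that ends mitosis, had 1189 and 1411, a log2 change of 0.25. Both of these exceptions were higher by less than 1.5-fold.

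**Figure D3:**
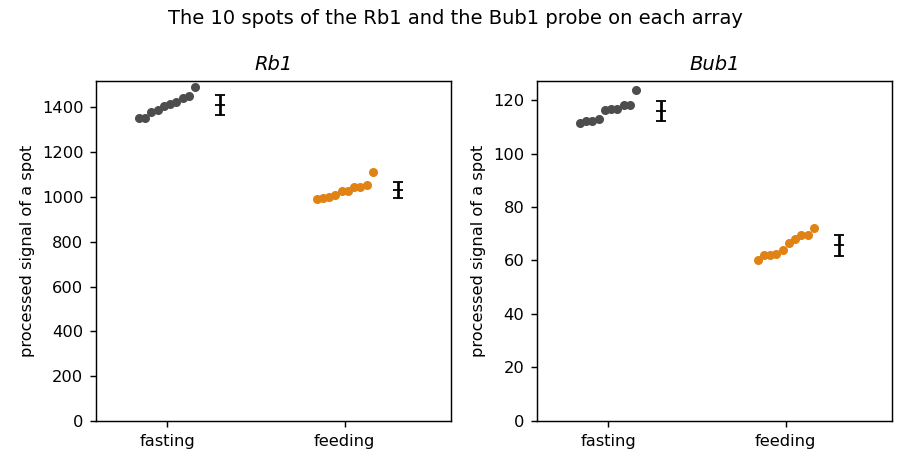
Processed signal before normalization, from 0, of the 10 spots of the Rb1 probe (left) and the Bub1 probe (right) on each array, sorted by signal within an array, with the mean and SD of the spots beside them. The spots upon feeding, up to 1110 for Rb1 and 72.1 for Bub1, all lie under those upon fasting, from 1353 and 111. Overlap was not counted for other probes printed more than once.

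The size of the mitotic difference moved with the treatment of background. Of the spots of these genes, the median local background was 31.8 upon fasting and 21.5 upon feeding, against 30 and 22 over all genes, and the background is subtracted from signals that are mostly in the middle of the range. The normexp correction adds an offset of 50, which shrinks the log2 changes of weak signals in any gene, as does background left in. With normexp the median change of the genes of mitosis was -0.28. Of the 12, 1 was lower by over 1.5-fold, as were 5.25% of all genes. With no background subtraction the median was -0.39 and 3 of 12 were lower by over 1.5-fold, against 7.09% of all genes. With the arrays scaled by their medians it was -0.50 and 4 of 12, against 8.66%. The direction did not move, since 10 of the 12 were lower under these processings, under each scaling of the arrays and with the mean over all probes. Among the genes whose spots on the fasting array had a local background at or below the median of that array, 5 of 5 genes of mitosis were lower. Their median was -0.60, and 44.4% of all genes in this subset were lower. The subset was chosen after seeing the data and leaves out Aurka and Cdc20, which were higher upon feeding.

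**Figure D4:**
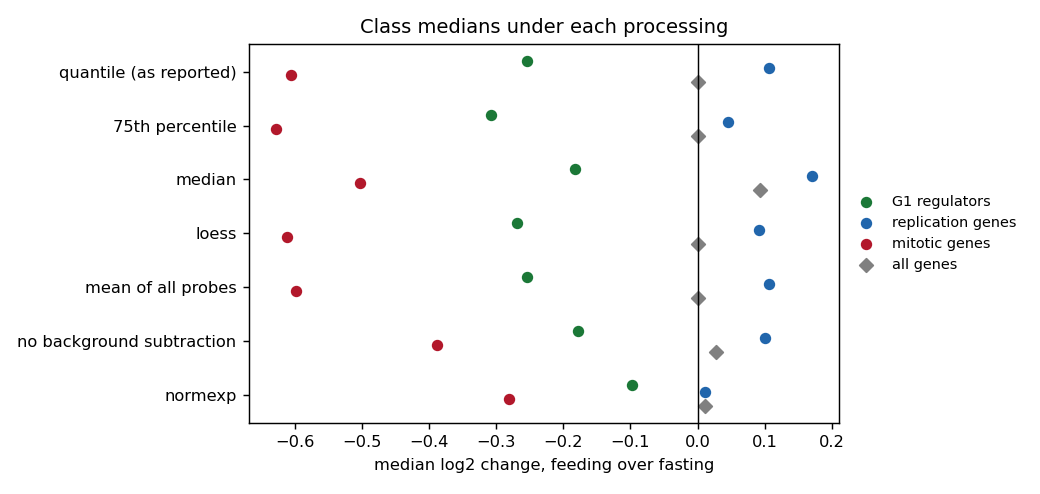
Median log2 change of the regulators of G1 (green), replication genes (blue), mitotic genes (red) and all genes (grey diamonds) under the reported quantile normalization and 6 other ways of processing the arrays, 1 row each. The mitotic median lies below the other medians in each row, from -0.63 with scaling by the 75th percentile to -0.28 with normexp.

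Promoters of 2 mitotic genes and 1 replication gene are shown because the groups differed in which motif letters they held. The windows of Cdk1 (chr10:69352863-69353162, - strand), Ccnb2 (chr9:70421505-70421804, - strand) and Mcm6 (chr1:128359656-128359955, - strand) are written as above, with the motif letters in capitals.
Cdk1: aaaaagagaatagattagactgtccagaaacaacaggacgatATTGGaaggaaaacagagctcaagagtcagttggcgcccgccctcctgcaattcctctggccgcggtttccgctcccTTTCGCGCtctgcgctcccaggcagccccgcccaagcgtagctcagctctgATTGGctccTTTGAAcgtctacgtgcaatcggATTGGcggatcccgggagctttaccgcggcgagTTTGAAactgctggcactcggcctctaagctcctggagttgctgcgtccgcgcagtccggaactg
Ccnb2: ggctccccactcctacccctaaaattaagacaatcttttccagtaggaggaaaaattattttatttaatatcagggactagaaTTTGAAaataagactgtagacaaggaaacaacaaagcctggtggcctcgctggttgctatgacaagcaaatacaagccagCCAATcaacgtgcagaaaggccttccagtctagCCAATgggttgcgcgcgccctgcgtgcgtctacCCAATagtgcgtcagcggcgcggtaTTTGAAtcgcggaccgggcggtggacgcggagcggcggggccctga
Mcm6: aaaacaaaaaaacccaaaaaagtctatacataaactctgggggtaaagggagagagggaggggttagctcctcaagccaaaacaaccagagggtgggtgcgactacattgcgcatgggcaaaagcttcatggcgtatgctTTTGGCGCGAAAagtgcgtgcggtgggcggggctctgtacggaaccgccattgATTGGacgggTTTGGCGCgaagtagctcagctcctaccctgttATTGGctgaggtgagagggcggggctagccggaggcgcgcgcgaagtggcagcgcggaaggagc
In Mcm6 a pair of E2F octamers on opposite strands overlapped and reads as a single run of capitals. Of the 10 mitotic genes with a window, 7 held the CHR letters (Aurka, Ccnb2, Cdc20, Cdk1, Mki67, Plk1 and Top2a), all 7 together with an NF-Y box, while 20.2% of all 27025 genes with a window held the CHR letters and 7.97% both. Cdk1 alone of the 10 also held an E2F octamer. The CHR letters were in the windows of Aurka and Cdc20, which were higher upon feeding, as well as in those of genes that were lower, and Birc5, Bub1 and Ccnb1 lacked them in this window. Of the 11 replication genes, 6 held an E2F octamer (Cdc6, Cdt1, Mcm3, Mcm5, Mcm6 and Mcm7), against 2.6% of all genes with a window, and these 6 comprised 3 genes that were higher and 3 that were lower upon feeding. Of the 9 regulators of G1 only Cdk2 held an E2F octamer and only E2f8 the CHR letters in these windows. The windows lie around the matched starts alone, so a promoter at another start, for E2f1 among others, was not searched. NF-Y boxes, which 41.1% of all genes with a window held, were in 9 of 10 mitotic genes, 8 of 11 replication genes and 5 of 9 regulators of G1. These matches describe letters and not binding. No window was matched for Rb1, Ccne2, Cdkn1c, Ccnd1, Ccnd2, Mcm4, Gmnn, Aurkb, Foxm1 and Ccna2.

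**Figure D5:**
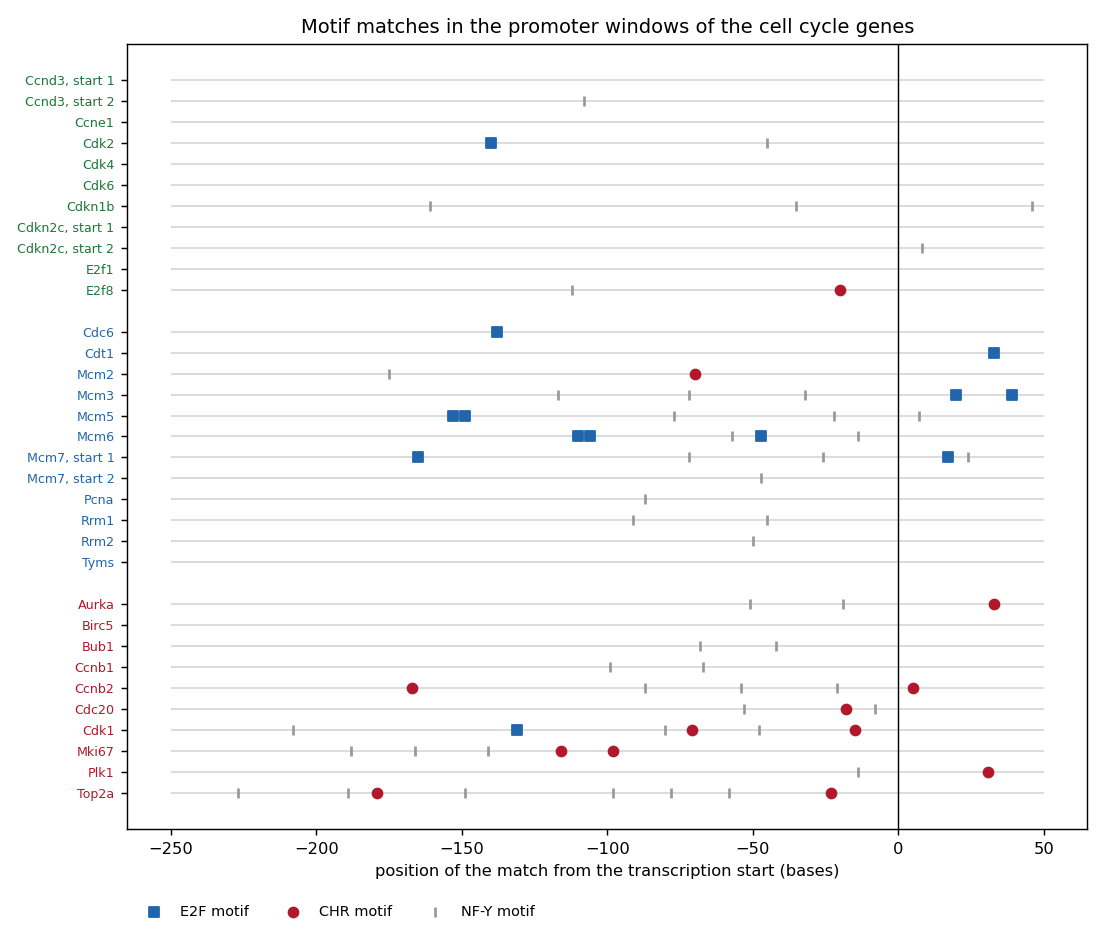
Matches of the E2F (blue squares), CHR (red circles) and NF-Y (grey bars) motifs along the promoter windows of 30 genes, with 1 line per transcription start and the horizontal axis in bases from the start, from 250 before to 50 after. Red circles gather in the lower block of mitotic genes and blue squares in the middle block of replication genes.

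Further genes of the cycle were taken from lists that were also chosen with earlier results of these data known. Their values can be read beside those of the members but are no independent comparison. Of 49 measured other genes of mitosis, 36 were lower, with a median of -0.31, where 45.2% of all genes were lower. Of those well above background on both arrays, 36 of 47 were lower, against 50.1% of all such genes. Of the 49, 2 rose and 3 fell over 2-fold, against 3.29% and 4.62% of all genes. Spc24 and Spc25, subunits of the same kinetochore complex, went opposite ways, with signals of 318 and 773 and a log2 change of 1.28 for Spc24, and 2344 and 1025 and a log2 change of -1.19 for Spc25. Wee1, the kinase that restrains Cdk1, rose from 1087 to 2440, a log2 change of 1.17, which was 0.99 with normexp. The other genes past 2-fold, named after their values were seen, were Kif2c (-1.16) and Ect2 (-1.14), which changed by -0.31 and -0.84 with normexp. Among 45 other genes of replication the median was 0, with 22 lower and 22 higher. Of the 45, 1 was past 2-fold, against 7.91% of all genes. It was the checkpoint adaptor Clspn, which was dim and whose log2 change of -1.49 was -0.21 with normexp.

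Of 35 measured other genes of G1 and cell cycle arrest, 4 rose and 7 fell over 2-fold, against 3.29% and 4.62% of all genes, with a median of 0.14. The stress genes Gadd45a and Gadd45g, which both arrest cells, parted. Gadd45a had signals of 302 upon fasting and 2060 upon feeding, a log2 change of 2.77, and Gadd45g had 15651 and 3878, a log2 change of -2.01. Ccng2, an unconventional cyclin linked to cell cycle arrest, fell from 365 to 70.3, a log2 change of -2.37, which was -1.39 with normexp. Cdkn1a, which encodes the inhibitor p21, fell from 4779 to 2276, a log2 change of -1.07 by its bright probe and -0.28 by a dim one, and the former was -0.88 with the arrays scaled by their medians. Myc, a driver of G1 progression, had 3026 and 2161, a log2 change of -0.49. The remaining genes that fell, named after their values were seen, were the antiproliferative genes Btg2 (-1.74), Tob1 (-1.63) and Btg1 (-1.15), and Gadd45b (-1.06). Scaled by the medians, Btg1 (-0.93) and Gadd45b (-0.95) were under 2-fold. The other genes that rose, also named after their values were seen, were E2f2 (1.91), Cks1b (1.02) and E2f7 (1.57), and with normexp E2f2 (0.94) and E2f7 (0.83) were under 2-fold. Of these E2f7 had a second probe with a log2 change of -1.02, so its direction is uncertain. Of the 35 genes, 11 were past 2-fold as reported, 8 with normexp, 9 with the mean over all probes and 10 with loess. Not every gene that dropped under 2-fold is named here.

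Markers of the cell types that could be dividing in liver also differed between the pools, and their part in the mitotic values was not tested. For the counts below, 45.2% of all genes and 48.0% of the bright genes were lower upon feeding. When the arrays were scaled by their medians, 35.2% of all genes were. Sinusoidal endothelial markers were lower upon feeding in 7 of 7 cases, or in 6 of 7 when the arrays were scaled by their medians, and their summed signal was 39955 upon fasting and 30614 upon feeding. Pecam1, an adhesion molecule of endothelium, was the 1 of them past 2-fold, with 470 and 229 and a log2 change of -1.04. Markers of Kupffer cells and macrophages were lower in 7 of 8, or 5 of 8 under that scaling, with summed signals of 83469 and 62071, and C1qa had 1515 and 474, a log2 change of -1.68. Stellate cell markers were lower in 5 of 7, with summed signals of 55245 and 39587, and Acta2 had 651 and 318, a log2 change of -1.04. The values of Pecam1 and Acta2 were -0.79 and -0.81 with normexp.

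Blood and duct markers moved less evenly. Lymphocyte markers were lower in 7 of 11, with summed signals of 8878 and 7534, and the B cell marker Ms4a1, which was dim, had 17.6 and 40.6, a log2 change of 1.21 that was 0.21 with normexp. Markers of neutrophils and myeloid precursors were lower in 1 of 7, with summed signals of 3242 and 3947, and erythroid markers in 3 of 7, with 38855 and 39596. The erythroid sum would have been lower upon feeding without Tfrc, named after its value was seen, which went from 1687 to 3357. Cholangiocyte markers were lower in 2 of 6, with summed signals of 2878 and 3523. Sox9 rose from 377 to 1625, a log2 change of 2.11, without which the sum would have been lower upon feeding. Spp1, the brightest of the 6 and named after its value was seen, fell from 2303 to 1671. Hepatocyte markers were lower in 5 of 8, with summed signals of 671806 and 607235 and a median change of -0.05. The count was 2 of 8 with the arrays scaled by their medians, and 7 of 8 with loess, normexp or no background subtraction. Tat, named after its value was seen, went from 104878 to 53470, and Cps1 from 81646 to 64795. These were the largest falls of the 8, of which 3 were higher upon feeding. No measured marker had a signal of 0.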

How the data were processed

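The 2 arrays carried Cy3-labelled liver RNA, extracted with Trizol and labelled with the Quick Amp kit, on the Whole Mouse Genome 4x44K design, which names build mm9. The authors read the scans with Agilent Feature Extraction (version 11.0.1.1). The deposited intensities per spot (processed, median and local background signal) are not normalized between arrays. The deposited value table of the series held the local background of each spot and was not used. Both arrays were read in the same scan of 1 slide. Each held 44397 spots, 1377 of them controls and 0 saturated. Of the other spots, 63.1% (fasting) and 72.3% (feeding) stood well above background. The number of arrays limits the precision.

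From these, control spots and outlier spots (123 and 98) were left out, log2 processed signals were averaged per probe and quantile normalized. By RefSeq transcript (GRCm38.p6), 27218 of 39402 probes were named, and no array coordinates are given because the builds differ. A gene was measured if at least 0.5 of its probe's spots were well above background on 1 array. If on 1 array only (1719 genes upon feeding, 112 upon fasting), the change is a lower bound against the higher of its own signal and the lowest signal well above background (14.4 and 6.55). Named genes were all 40 members, Cdkn1a, Wee1 and Myc, and from each other list at most 3 with the largest change past 2-fold well above background on both arrays. Further genes past 2-fold, and the markers Tat, Tfrc and Spp1, were named after their values were seen, as the text says. The members and lists were chosen with earlier results of these data known.

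As alternatives, arrays were scaled by their 75th percentile or median, or adjusted by loess. Others were normexp with an offset of 50 (limma 3.58.1, R 4.3.3), no background subtraction, the mean over probes, other filters, and thresholds of 1.5-fold and 3-fold. Calculations used Python 3.11.15 with numpy 2.4.6 and pandas 2.3.3, and were tested on simulated data.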

Additional observations from a re-analysis of the deposited data

How the results depend on the processing

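No replicate could be left out, and no p-value stands behind any value, because each group had 1 array. No paired analysis was possible because the groups share only the replicate number 1. The median change of the 39 genes was -0.11 when the arrays were scaled by their medians, a scaling that moves the median of all genes to 0.09. The median of the regulators of G1 was -0.10 with normexp, and that of the genes of mitosis was -0.28 with normexp and -0.39 with no background subtraction. Of the 39 genes, 12 passed a threshold of 1.5-fold and 1, Rrm2, one of 3-fold. Among the 21 genes with a low local background on the fasting array, a choice made after seeing the data, 1 passed 2-fold, since the spot of Ccne1 has a higher background and was left out. With no filter on dim probes 3 genes passed 2-fold, the third being Aurkb, and with no lower bound 3 did, the third being Cdk6. Under the other alternatives the medians moved by less than the spread of single spots, and the count past 2-fold by no more than 1.5 times. The count lower by over 1.5-fold fell with scaling by the median from 7 to 4 in the genes of mitosis and from 3 to 1 in the regulators of G1. No change past 2-fold turned its direction. Of the changes of single genes, 18 of 39 moved by more than that spread with scaling by the median and 9 with normexp. Naming probes by a gene symbol column was not run, because the array files used here pair probes with transcripts and not with symbols. Low signal over background limits the dim genes Bub1, Foxm1, Top2a, Ccne2, Ccnd2, Cdc6 and Cdk6.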
